A study of Mus musculus with 2 samples.

Results

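The mouse genes named Zfp with a number, on chromosomes 7, 8, 13 and 17, were examined for H3K4me3 at their transcript starts in lung group 2 innate lymphoid cells (ILC2s). The members were chosen by their symbol among the protein-coding genes of GENCODE vM21, without Zfp36, which belongs to another kind of zinc finger family, and the rule itself uses no measured value, although the group was proposed with earlier results of these data known. There were 184 members of 22028 protein-coding genes, with 88 on chromosome 7, 24 on chromosome 8, 31 on chromosome 13 and 41 on chromosome 17. Another 180 numbered Zfp genes on the other chromosomes served for comparison.

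H3K4me3, a histone mark found at active or poised transcript starts, was profiled by CATCH-seq, a carrier-assisted form of ChIP-seq that works with small numbers of cells and uses unfixed chromatin digested by micrococcal nuclease. Female C57BL/6J mice were sensitized by intraperitoneal alum with ovalbumin (OVA) or with alum alone, were mated to untreated males and received intranasal OVA or PBS during gestation. ILC2s (CD45+, Lin-, ST2+) were sorted from the lungs of their 8-week-old offspring, and about 3000 cells went into each library. Each maternal group, the PBS-treated controls and the OVA-treated asthmatic mothers, gave 1 library of offspring cells, so no difference between the groups has a replicate check, no test was made, and the treatment, the litter and the library cannot be told apart.

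Most Zfp genes encode proteins with tandem C2H2 fingers, each of which holds a zinc ion and reads a few bases of DNA. Many carry a KRAB domain ahead of the fingers, which recruits the corepressor TRIM28 and through it the H3K9 methyltransferase SETDB1, and such proteins are known above all for silencing transposable elements. The genes multiplied by tandem duplication and therefore lie in runs of related neighbours, some of which are near-identical copies.

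The name of the group was checked against the annotation. By the finger pattern, 181 of the 184 members had at least 1 C2H2 finger in a translated coding sequence, with a median of 11.5 and up to 33 in Zfp619. Zfp703, a corepressor with an atypical finger, Zfp330, a nucleolar protein, and Zfp935 had none by this pattern. A stretch of the KRAB core was found in 133 members, in at least 1 translated coding sequence of each. The search took the part ahead of the fingers, or the whole sequence where it held no finger, as in Zfp935. The pattern is coarse, so it can miss divergent domains and can match other stretches. The members did not form 1 cluster per chromosome. With at most 500 kb between neighbours they fell into 54 runs, of which 14 held 4 or more members, 139 in all, while 36 members stood alone. Of these 14 runs, 9 lay on chromosome 7, 2 on chromosome 8, 1 on chromosome 13 and 2 on chromosome 17.

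Sequence from the RefSeq genome (GRCm38.p6) is given for members that show the range of the data, 100 bases outside annotated exons on the strand of the gene, with CG dinucleotides in capitals. The first pair had the highest values of their chromosomes in the control list, Zfp710 at chr7:80026891-80026990 and Zfp799 at chr17:32829979-32830078, both intronic and next to the peak summit.

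Zfp710: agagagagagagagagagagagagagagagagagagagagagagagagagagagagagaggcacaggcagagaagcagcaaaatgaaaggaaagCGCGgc

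Zfp799: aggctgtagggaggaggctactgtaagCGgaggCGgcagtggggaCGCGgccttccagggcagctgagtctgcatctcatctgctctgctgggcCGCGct

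The Zfp710 summit, unlike that of Zfp799, lay within a run of alternating a and g. The next pair held strong peaks in offspring of control mothers and none in offspring of asthmatic mothers, Zfp169 at chr13:48513112-48513211 and Zfp784 at chr7:5038235-5038334, both in introns.

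Zfp169: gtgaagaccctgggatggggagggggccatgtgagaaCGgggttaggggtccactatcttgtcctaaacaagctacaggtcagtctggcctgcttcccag

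Zfp784: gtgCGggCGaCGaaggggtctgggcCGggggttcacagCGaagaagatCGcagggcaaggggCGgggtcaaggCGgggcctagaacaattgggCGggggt

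The stretch of Zfp784 held 9 CG dinucleotides and that of Zfp169 held 1. The last pair had no start peak in either list, Zfp42 at chr8:43307010-43307109 and Zfp819 at chr7:43607035-43607134, both upstream of the gene.

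Zfp42: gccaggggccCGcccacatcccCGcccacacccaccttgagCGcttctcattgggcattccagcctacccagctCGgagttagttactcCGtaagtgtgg

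Zfp819: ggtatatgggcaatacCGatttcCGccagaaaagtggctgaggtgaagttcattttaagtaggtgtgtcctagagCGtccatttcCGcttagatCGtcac

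Each of these held 5 CG dinucleotides, between the counts of Zfp169 and Zfp784.

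The data are 1 peak list per library as the authors deposited it, with 42126 peaks in offspring of control mothers (the control list) and 51610 in offspring of asthmatic mothers (the asthmatic-mother list). Library depth is not known from these lists, and a gene without a listed peak may carry signal under the caller's threshold. The study's reporting form says that no peaks were called on its ChIP-seq data, so how these lists and their q values were made is not known. The -log10 q of a peak, its strength as given by the caller, is not scaled between libraries and was therefore ranked within each list. Where raw values of both lists are printed, they are not to be set against each other. A peak within 1000 bp of any annotated start of a gene was counted as its start peak. Among marker genes listed for the sorted cells, 10 of 12 ILC2 genes had a start peak in the control list and 7 of 12 in the asthmatic-mother list. Over all protein-coding genes the shares were 50.9% and 41.9%. Gata3, Il7r and Il5 had one in the control list alone, with Gata3 at the 24.7th percentile, and Klrg1 and Il13 had none in either list. No listed marker of T cells, B cells, macrophages, neutrophils, endothelial cells or fibroblasts had one in either list, and of 3 epithelial markers Epcam had one in the control list alone, at the 85.6th percentile of its -log10 q. Its part in the results was not tested.

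A start peak was the rule at the members in offspring of control mothers. It was listed for 162 of 184 members (88.0%, exact Clopper-Pearson 95% interval 82.5 to 92.4%), against 50.9% of all protein-coding genes. The Zfp genes of other chromosomes stood between these, with 134 of 180 (74.4%, 67.4 to 80.6%). Limited to the 10000 peaks of highest -log10 p of each list, the share was 61.4% of members and 32.2% of all genes. The intervals cover counting error only, and neighbouring members are related, so they are not independent draws.

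Fewer members had a start peak in offspring of asthmatic mothers. The number was 120 of 184 (65.2%, 57.9 to 72.1%), against 41.9% of all protein-coding genes and 114 of 180 Zfp genes elsewhere (63.3%, 55.8 to 70.4%). Both lists had a start peak at 119 members (64.7%), where the background is 41.2%. The control list alone had one at 43 members (23.4%, 17.5 to 30.2%) against 9.71% of all genes, and the asthmatic-mother list alone had one at 1 member, Zfp52, where the background is 0.722%. With peaks of single-copy summits alone, which leaves out control peaks that have copies, the latter number was 7, against 0.64% of all genes. Neither list had one at 21 members (11.4%), against 48.4% of all genes. Limited to the 10000 strongest peaks of each list, 13.6% of members were marked in the asthmatic-mother list, against 9.32% of all genes, 24 members were in both, against 8.43%, and 89 members (48.4%) were in the control list alone, against 23.7%. The size of the gap thus changed with how far down each list was read, for members and for all genes.

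Among members marked in the control list, 119 of 162 also had a start peak in the asthmatic-mother list (73.5%, 66.0 to 80.1%). The same share was 80.9% over all marked genes and 113 of 134 over the Zfp genes elsewhere (84.3%, 77.0 to 90.0%). The member share was the lowest of the 3, and its interval lay just below the value for all genes and overlapped that of the other Zfp genes. Seen as peaks, 124 of 178 start peaks of the control list overlapped a peak of the asthmatic-mother list (69.7%), while 133 of 135 did in the reverse direction (98.5%). For the strongest start peak of each gene these shares were 72.8% and 99.2% over members and 77.9% and 96.8% over all marked genes, so most of this asymmetry was that of the whole lists.

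On each of the 4 chromosomes the members were marked more often than the other protein-coding genes of that chromosome. On chromosome 7, 76 of 88 members (86.4%, 77.4 to 92.8%) had a start peak in the control list against 39.2% of the other genes, and 51 (58.0%, 47.0 to 68.4%) had one in the asthmatic-mother list against 32.6%. Chromosome 8 had 20 of 24 members (83.3%) against 57.9% of its other genes, and 18 (75%) against 49.0%. Chromosome 13 had 30 of 31 members (96.8%) against 55.5%, and 23 (74.2%) against 46.8% in the asthmatic-mother list. Its share of the control list was the highest of the 4 with all starts and the lowest with the 5′ end of each gene alone, 80.6% against 81.8% on chromosome 7, 83.3% on chromosome 8 and 85.4% on chromosome 17. Chromosome 17 had 36 of 41 members (87.8%) against 52.3%, and 28 (68.3%) against 43.9%. Of the members marked in the control list, 51 of 76 were also in the other list on chromosome 7 (67.1%, 55.4 to 77.5%), against 81.2% of the other genes there. The share was 18 of 20 on chromosome 8 (90.0%, 68.3 to 98.8%) against 83.3%, 23 of 30 on chromosome 13 (76.7%) against 83.5%, and 27 of 36 on chromosome 17 (75%) against 82.7%. The intervals of chromosomes 7 and 8, the lowest and the highest, overlapped.

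**Figure D1:**
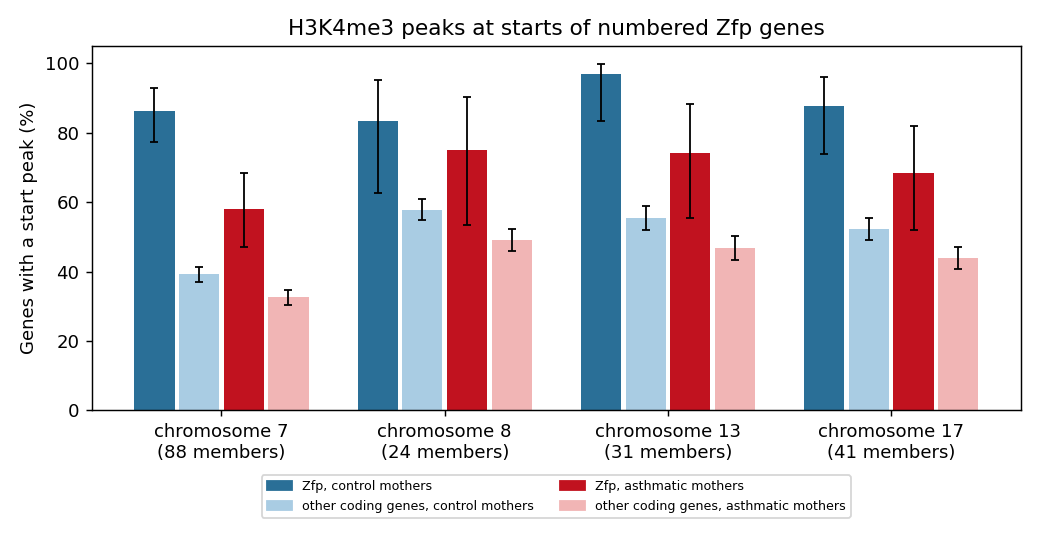
Share of genes with an H3K4me3 start peak (%), for the Zfp members and the other protein-coding genes of each chromosome, in the control list (blue) and the asthmatic-mother list (red), with exact 95% intervals for counting error. Members stood above the other genes in all 8 pairs, from 96.8% against 55.5% on chromosome 13 in the control list to 58.0% against 32.6% on chromosome 7 in the asthmatic-mother list.

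The other protein-coding genes inside the 14 runs were marked less often than the members over all runs, and differed between runs. Of 136 such neighbours, 59 had a start peak in the control list (43.4%, 34.9 to 52.1%) and 49 in the asthmatic-mother list (36.0%, 28 to 44.7%), while the 139 members of the same runs had 124 (89.2%, 82.8 to 93.8%) and 91 (65.5%, 56.9 to 73.3%). The 45 members outside such runs had 38 (84.4%) and 29 (64.4%), close to those within them. In the chromosome 13 run from Zfp712 to Zfp273 the neighbours were marked nearly as often as the members, 10 of 11 in the control list and 9 in the other. In the run from Zfp553 to Zfp646 it was 16 of 23 in each list, and in that from Zfp160 to Zfp13 it was 1 of 14.

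The runs differed from each other. The run of 19 members on chromosome 13 from Zfp712 to Zfp273 (chr13:67038596-67827002, GRCm38), all with a KRAB stretch, had a start peak at each of its members in the control list and at 17 in the asthmatic-mother list, without Zfp595 and Zfp493. The 10 members from Zfp553 to Zfp646 (chr7:127233061-127885996) and the 4 from Zfp709 to Zfp961 on chromosome 8 were marked in both lists throughout. By contrast, the run of 4 from Zfp954 to Zfp772 (chr7:7114690-7209998), which spans 95.3 kb, was marked throughout in the control list and nowhere in the asthmatic-mother list. Its -log10 q values in the control list were 23.5 at Zfp954, 6.21 at Zfp773, 12.7 at Zfp418 and 12.3 at Zfp772. Of these only Zfp954 lay above 13.7, the median over all genes marked in that list. Over all runs, 23.4% of members were marked in the control list alone, against 9.71% of all genes. Of the words of 75 bases taken around the start of Zfp772, 21.1% had a copy elsewhere.

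The run of 15 members from Zfp84 to Zfp146 (chr7:29768552-30169750) held the most members of the control list alone. All 15 were marked in the control list and 7 in the asthmatic-mother list, Zfp84, Zfp790, Zfp74, Zfp568, Zfp82, Zfp260 and Zfp146. The 8 others, Zfp30, Zfp940, Zfp420, Zfp27, Zfp383, Zfp14, Zfp566 and Zfp382, lay in several places among them, with Zfp940, Zfp420, Zfp27 and Zfp383 next to each other. No word of 75 bases around the starts of these 15 had an exact copy elsewhere in the genome. The run of 14 from Zfp180 to Zfp526 had 9 and 6 marked members, and Zfp112, Zfp114, Zfp111, Zfp93 and Zfp575 in it had no start peak in either list. The largest run, 23 members from Zfp160 to Zfp13 on chromosome 17, had 19 and 14 and held Zfp52, while the 11 members from Zfp871 to Zfp414 had 10 and 9.

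**Figure D2:**
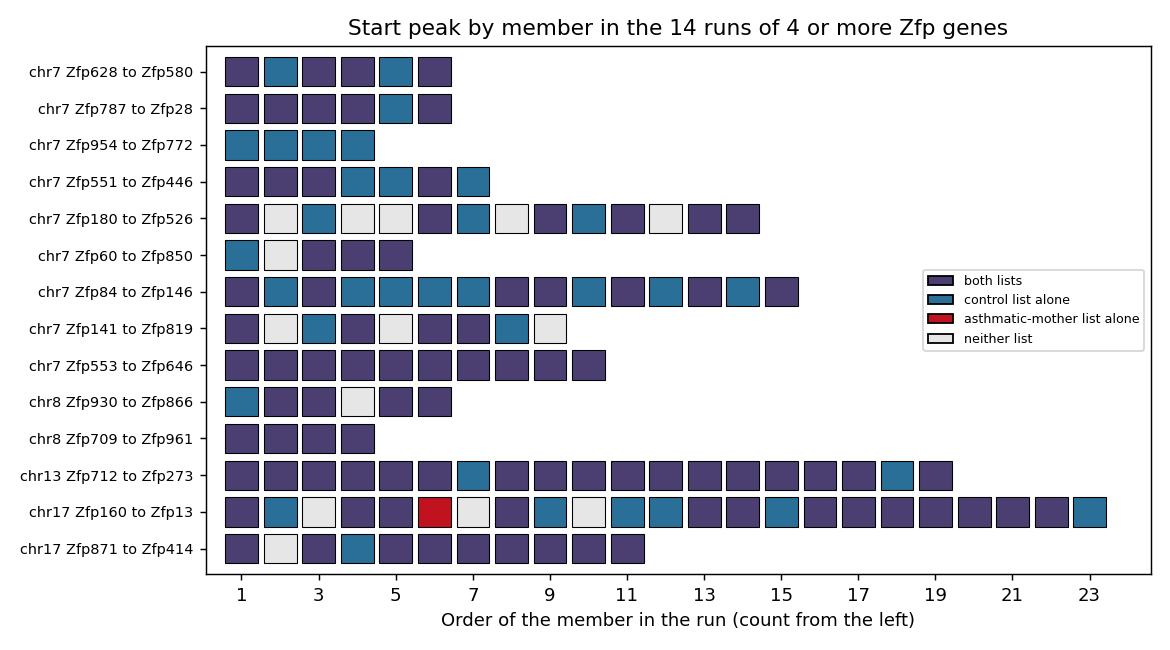
Members of the 14 runs of 4 or more Zfp genes in chromosome order, 1 square per member, coloured by the lists that held a start peak. The run from Zfp954 to Zfp772 has 4 squares of the control list alone, the run from Zfp553 to Zfp646 has 10 of both lists, and Zfp52 is the only square of the asthmatic-mother list alone.

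The strongest peaks of each chromosome were at different genes in the 2 lists, with some in common. On chromosome 7, Zfp710 led both, with a -log10 q of 44.1 in the control list (99.6th percentile) and 24.5 in the asthmatic-mother list (98.5th percentile), and its peaks of 878 and 448 bp held 67 and 36 fragments at the summit as solved from the fold and p. Zfp143, an activator of many promoters including those of small nuclear RNA genes, followed in the control list at 26.9 (98.6th percentile) but stood at the 51.6th percentile of the other list. Zfp606 came next, at the 98.3rd and 46.1st percentiles. In the asthmatic-mother list the next strongest were Zfp507 at the 90.9th percentile and Zfp787 at the 89.2nd, which stood at the 97.3rd and 94.6th in the control list.

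On chromosome 8, Zfp868 led both lists, with a -log10 q of 24.7 (98th percentile) and 16.9 (95.7th percentile). Zfp617 and Zfp709 followed in the control list at 23.9 and 23.8, and in the asthmatic-mother list they stood at the 86.1st and 34.1st percentiles. Zfp703 (13.8) and Zfp358 (13.4) followed Zfp868 in the asthmatic-mother list. These 5 genes thus held a peak in both lists, and Zfp709 had the largest difference in percentile among them.

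On chromosome 13, Zfp273 had the highest -log10 q in the control list, 36.4 (99.4th percentile, 44 fragments), and 11.5 in the other (84.5th percentile, 19 fragments). Zfp748 stood at 26.6 (98.5th percentile) and 11.5 (84.5th percentile). Zfp169 had 25.9 in the control list (98.3rd percentile, 33 fragments over 426 bp) and no listed start peak in the asthmatic-mother list. Zfp455 led the asthmatic-mother list at 19.2 (97th percentile), with 20.9 in the control list (95.6th percentile). Zfp738 followed at 16.9 (95.7th percentile), with 23.2 in the control list (97.3rd percentile).

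On chromosome 17, Zfp799 had 29.3 in the control list (98.9th percentile) and 11.5 in the asthmatic-mother list (84.5th percentile). Zfp97 had 25.8 and 6.24 (98.3rd and 38.3rd percentiles). However, 100% of the words at its start had exact copies elsewhere, so its reads could not be placed uniquely and its values are uncertain. Zfp53 had 24.6 and 13.6 (97.9th and 90.9th percentiles). Zfp959 led the asthmatic-mother list at 18.1 (96.5th percentile), with 21.0 in the control list (95.7th percentile). Of its start words, 39.5% were copied.

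Members marked in the control list alone had a median -log10 q of 9.76 there (65.4th percentile), against 16.8 (90.1st percentile) for members in both lists and 8.09 (53.4th percentile) for all genes marked in the control list alone. After Zfp169 and Zfp954 the strongest were Zfp30, which has been studied as a regulator of airway neutrophil responses in mice, at 19.4, Zfp784 at 18.6 and Zfp60 at 17.8. Each of these 5 stood at or above the 92.0th percentile of the control list, with 26 to 33 fragments at the summit, and none had a copy of its summit word. Zfp52, the member of the asthmatic-mother list alone when all peaks are used, had a -log10 q of 5.17 (22.2nd percentile, 12 fragments, 162 bp), with its summit 308 bp downstream of a start.

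Over all members with a start peak in both lists, the percentile was higher in the control list for 108 of 119 (90.8%, against 86.7% of all genes with both). The median difference was 25.5 percentile points, against 21.1 for all genes. The lists differ in length and make-up, with 30.3% of peaks at a coding start in the control list and 19.5% in the other, so a lower percentile of a gene is not by itself a loss of signal. The 11 that ranked higher in the asthmatic-mother list were Zfp628, Zfp524, Zfp61, Zfp715, Zfp747, Zfp629, Zfp703, Zfp827, Zfp1, Zfp455 and Zfp959. Zfp1 had the largest difference of these, the 63.4th against the 87.5th percentile.

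**Figure D3:**
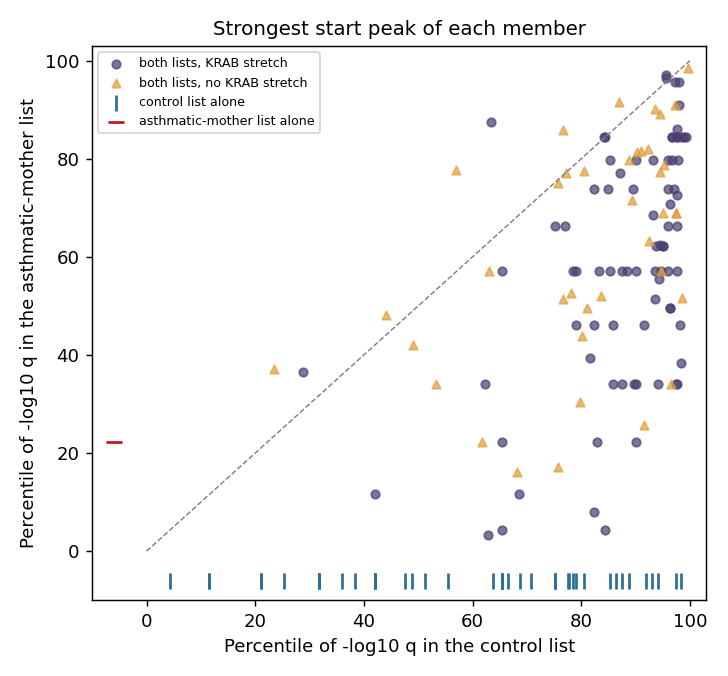
Percentile of -log10 q of the strongest start peak within the control list (horizontal) and the asthmatic-mother list (vertical) for the 119 members with both, with ticks at the edges for members of 1 list. Most points lie below the dashed line of equal rank, and the ticks of the control list alone run from the 4.23rd to the 98.3rd percentile; rows of points at 1 height are tied values.

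In the control list the members' peaks ranked high and were narrow. The median -log10 q of the strongest start peak was 14.8 (85.8th percentile) over 162 members, against 13.7 (82.7th percentile) over all marked genes, and 68 members (42%) lay in the top 10% of the list, against 29.6% of marked genes. The median width was 436 bp against 528 bp, and 474 bp against 663 bp when peaks at most 1000 bp apart were joined. In the asthmatic-mother list the members' median was 7.99, the same to this precision as for all marked genes, and 9 members (7.50%) lay in the top 10% against 8.25%. The median width there was 314 bp against 340 bp. Of the 119 members with both, 108 had the wider peak in the control list, and the median ratio of the widths was 0.679 against 0.649 over all genes with both.

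The widest joined domains of the control list were at Zfp703 (1830 bp), Zfp958 (1496 bp) and Zfp524 (1493 bp), each made of 2 peaks. In the asthmatic-mother list they were at Zfp703 (1460 bp), Zfp958 (1378 bp) and Zfp143 (1238 bp). The Zfp958 peak of the asthmatic-mother list had a summit word with 133 copies in the genome and lay 807 bp upstream of a start, so it may not belong to this gene. The members with the most annotated starts were Zfp523 with 14, Zfp57 with 13 and Zfp444 with 12, and Zfp523 and Zfp444 were marked in both lists.

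At most members the peaks sat just inside the genes. The summit lay within 300 bp of an own start for 152 of 162 members in the control list and 101 of 120 in the asthmatic-mother list, with medians of 104 and 114 bp downstream. For 13 and 11 members it was nearer to the start of another gene than to an own start. Zfp710, the member of highest -log10 q in each list, had its summits 561 and 557 bp downstream of a start. These positions were not counted over all genes, so they are not shown to be particular to the members. A word of 75 bases at the summit had an exact copy elsewhere for 9 of 162 (5.56%, against 2.97% of marked genes) and 7 of 120 (5.83%, against 4.37%). The shares of marked members were 88.9% and 64.4% among the 135 with no copied word at the start, near those of all members.

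Some neighbouring members shared 1 peak. Zfp668 and Zfp646 on chromosome 7 start back to back and share a peak of 987 bp in the control list (-log10 q 23.4). In the asthmatic-mother list their strongest shared peak is of 168 bp (8.85), 1 of 2 peaks that join to a domain of 978 bp. Zfp942 and Zfp943 share one of 845 bp (22.3) and one of 709 bp (11.5), and Zfp944 and Zfp758 share one of 810 bp (21.7) and one of 728 bp (7.05), on chromosome 17. In the genes of these 2 pairs, 23.7 to 26.3% of the start words have a copy elsewhere, so their values are uncertain. In all, 16 members had a coding gene starting divergently within 1000 bp, and 15 of these (93.8%) were marked in the control list and 14 (87.5%) in the asthmatic-mother list, against 90.0% and 77.8% of all 2412 coding genes with such a neighbour.

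Among members known for particular roles, Zfp568, which represses a placental transcript of Igf2, was marked in both lists, at 23.7 and 9.58 (97.6th and 72.7th percentiles). Zfp57, which maintains methylation at imprinted regions, had a weak peak of 4.6 (11.4th percentile, 12 fragments) in the control list alone. Zfp423, a regulator of fat cell and cerebellar development, had 7.61 in the control list alone, and Zfp110, which interacts with the neurotrophin receptor p75, had 9.56 there alone. Zfp42 (Rex1), a marker of pluripotent cells, and Zfp819, known from pluripotent cells as well, had no start peak in either list. Of the early numbered genes, Zfp1 (9.50 and 12.5), Zfp40 (21.1 and 8.65) and Zfp65 (13.7 and 9.59) were marked in both lists. Their percentiles were the 63.4th and 87.5th, the 95.9th and 66.4th, and the 82.4th and 73.8th. Zfp961 was also marked in both (17.7 and 6.86, 91.6th and 46.1st percentiles), and its summit word in the second list had 792 copies. Zfp13 had 5.39 in the control list alone.

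Whether a member marked in the control list was also marked in the asthmatic-mother list followed the strength of its peak. All marked genes were divided into 3 groups of nearly equal size at a -log10 q of 11.4 and 16.2 in the control list. In the weakest group, 17 of 43 members were also in the second list (39.5%, 25.0 to 55.6%), against 56.2% of all genes and 54.3% (36.6 to 71.2%) of the other Zfp genes. In the middle group it was 36 of 48 (75%, 60.4 to 86.4%), against 90.1% and 95.1% (83.5 to 99.4%). In the strongest group it was 66 of 71 (93.0%, 84.3 to 97.7%), against 96.5% and 94.8%. The member values were the lowest of the 3 in each group, and in the lower 2 groups the interval lay below the value of all genes. The interval of the strongest group held it.

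**Figure D4:**
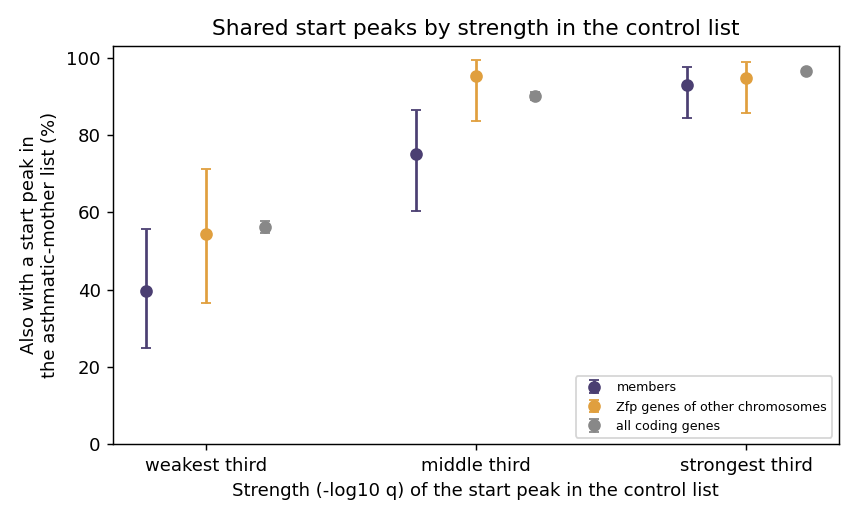
Share of genes marked in the control list that also had a start peak in the asthmatic-mother list (%), for 3 groups of rising -log10 q in the control list, with exact 95% intervals. Members (purple) rose from 39.5% to 75% and 93.0%, and all coding genes (grey) from 56.2% to 90.1% and 96.5%.

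Members with a KRAB stretch and those without had like shares in the control list and differed more in the asthmatic-mother list. The start peak was listed in the control list for 116 of 133 with it (87.2%, 80.3 to 92.4%) and 46 of 51 without (90.2%, 78.6 to 96.7%), and in the asthmatic-mother list for 81 (60.9%, 52.1 to 69.2%) and 39 (76.5%, 62.5 to 87.2%). Over all coding genes the shares were 50.9% and 41.9%. Of those marked in the control list, 80 of 116 (69.0%, 59.7 to 77.2%) and 39 of 46 (84.8%, 71.1 to 93.7%) were also in the second list. The intervals overlapped, and the share over all genes marked in the control list was 80.9%. On chromosome 7 the shares with and without the stretch were 26 of 46 (56.5%, 41.1 to 71.1%) and 25 of 30 (83.3%, 65.3 to 94.4%). The order was not the same on every chromosome, with 11 of 12 against 7 of 8 on chromosome 8, 20 of 26 against 3 of 4 on chromosome 13 and 23 of 32 against 4 of 4 on chromosome 17. Within the 3 groups of strength, 31%, 65.7% and 92.3% of the members with the stretch were also in the second list, against 8 of 14, 13 of 13 and 18 of 19 of those without. The members with a KRAB stretch had a median GC content of 51.0% in the 1000 bases around the start, against 60.0% without. The part of base composition in the difference was not tested.

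Base composition moved with the mark. Members in both lists had a median GC of 54.2% and a ratio of observed to expected CpG of 0.63, those of the control list alone 50.8% and 0.53, and those in neither 49.7% and 0.40. Over all protein-coding genes, those in both lists had 59.7% and 0.76 and those in neither 48.6% and 0.24, so marked members were poorer in GC and CpG than marked genes in general. Among members marked in the control list, 51 of 80 with a GC content below 53.4% were also in the second list (63.8%, 52.2 to 74.2%) and 68 of 82 at or above it (82.9%, 73.0 to 90.3%). Over all genes these shares were 71.7% and 83.4%, and for the Zfp genes elsewhere 85.1% and 83.9%.

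**Figure D5:**
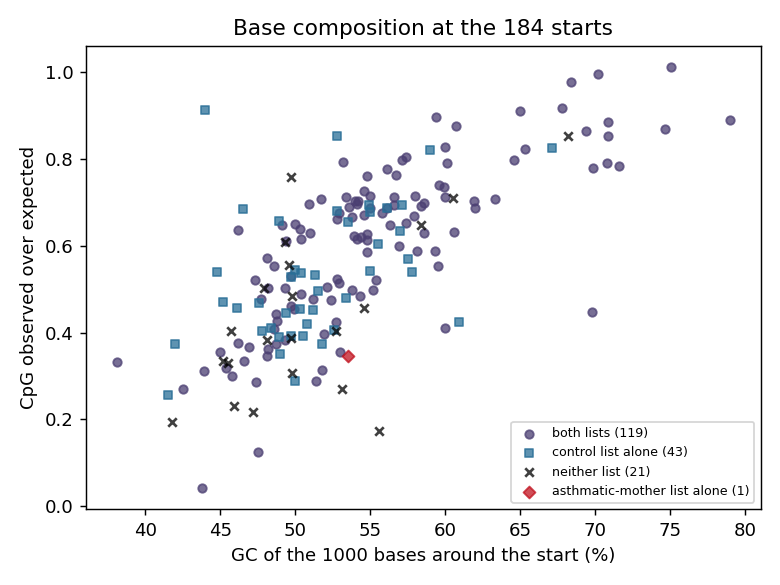
GC content (%) and observed over expected CpG of the 1000 bases around the start of each of the 184 members, by the lists with a start peak. Members in both lists (119) reach the upper right, while those in neither (21) have a median GC of 49.7% and a median ratio of 0.40.

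The unmarked members were Zfp541, Zfp296, Zfp112, Zfp114, Zfp111, Zfp93, Zfp575, Zfp626, Zfp977, Zfp936, Zfp819 and Zfp941 on chromosome 7, Zfp42, Zfp869, Zfp791 and Zfp612 on chromosome 8, Zfp366 on chromosome 13, and Zfp54, Zfp948, Zfp229 and Zfp811 on chromosome 17. They include Zfp541 and Zfp296, with GC contents of 68.2% and 60.5%, and Zfp791, with 41.8%. Of these 21, 7 had a copied word at the start.

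Short motifs were counted in RefSeq promoters, which run from 250 bases before to 50 after a start and were found for 162 of the 184 members (191 windows), on both strands. The ETS core CCGGAAG was in 21.5% of member windows (15.9 to 28%) and in 11.9% of the 20170 windows of all coding genes, but in 22.4% and 20.1% of the windows of members and of all genes marked in both lists. The GC box GGGCGG was in 40.8% and 47.8%, and in 47.2% and 66.0% of the windows marked in both lists. CCAAT was in 46.6% and 37.8%, TATAAA in 7.85% and 12.1%, and the NRF1 core GCGCATGCG in 5.24% and 2.45%. Among windows marked in both lists these were 46.4% and 37.3%, 8.00% and 6.12%, and 6.40% and 4.17%, so the order of members and all genes turned for TATAAA. A match is a description of letters only, and related members do not count as separate draws.

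The core of the element that Zfp143 reads, ACTACAATT, was in 7 windows of members (3.66%, 1.49 to 7.41%) and in 0.530% of all windows. Among windows marked in both lists it was in 2.40% of those of members (0.498 to 6.85%) and in 0.752% of all, a value within the interval of the members. The stretches of 30 bases are shown with the core in capitals, read on the strand of the core.

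Zfp128, chr7:12881155-12881184: gggacactgagACTACAATTcccagaaggc

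Zfp180, chr7:24081867-24081896: agctcaatggaACTACAATTcccagaactc

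Zfp108, chr7:24254719-24254748: atggctccagaACTACAATTcccagaatgc

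Zfp93, chr7:24270339-24270368: ctggcgttggaACTACAATTcccagaattc

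Zfp1, chr8:111643410-111643439: tgaggtgtaggACTACAATTcccataatgc

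Zfp58, chr13:67500531-67500560: acagtggccagACTACAATTcccacaagtc

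Zfp111, chr7:24208376-24208405: ccaacaacttACTACAATTgtctttcatgc

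In 6 of these 7 the core was followed by the same 4 bases and ran against the strand of the gene, close to its start and touching an annotated exon, and Zfp111 was the exception on each count. Of the 7 genes, Zfp180, Zfp1 and Zfp58 were marked in both lists, Zfp128 and Zfp108 in the control list alone, and Zfp93 and Zfp111 in neither. Of the 7, 4 lie in the run from Zfp180 to Zfp526.

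Peaks inside members but over 1000 bp from any coding start numbered 21 in 15 members in the control list and 33 in 23 members in the asthmatic-mother list, where Zfp935 and Zfp934 overlap and share 2 of them. The asthmatic-mother list holds more peaks in all, and 14.1% and 17.1% of all coding genes had such a peak, against 8.15% and 12.5% of members. A summit word with copies elsewhere was found at 14 (66.7%) and 29 (87.9%) of them, against 90.1% and 92.6% of such peaks in all coding genes, and the median share of repeat-masked bases was 100% in both lists. An exception was Zfp420, whose start peak was in the control list alone (7.94) but which held a single-copy peak within the gene in both lists, at chr7:29864918-29865383 with a -log10 q of 12.2 and at chr7:29864936-29865557 with 15.6, the 77.2nd and 94.1st percentiles. Zfp473 and Zfp827 also had single-copy peaks within the gene in both lists.

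Genes of a list that holds Trim28, Setdb1, the HUSH complex and other chromatin silencing factors were marked more often than the average gene. Not all of them encode corepressors through which KRAB proteins act. Of these 22 genes, 21 had a start peak in the control list, where 50.9% of all coding genes did, and 18 in the asthmatic-mother list, where 41.9% did. Trim28 stood at the 68.2nd and 64.1st percentiles and Setdb1 at the 96.9th and 86.8th. The genes in the control list alone were Atf7ip, a partner of SETDB1, Uhrf1, which maintains DNA methylation, and Suv39h1, an H3K9 methyltransferase, and Cbx5, which encodes HP1 alpha, had no start peak in either list.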

How the data were processed

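Per the labels and the study's methods, reads of 1 H3K4me3 library per group were trimmed (Trim Galore, cutadapt) and aligned to mm10 (GRCm38) with Bowtie2. By the same methods, PCR duplicates were then removed with Sambamba. By the reporting form of the study, its ChIP-seq data went through no peak calling. The caller of the deposited lists and its threshold are not given in the sources used here, nor is whether the input that was set aside served as control. The deposited peak lists hold a score, the authors' fold (a ratio of summit signal to background), the p-value and q-value of the authors as −log10 and a deposited summit position. Starts and coding sequences came from GENCODE vM21 and bases from RefSeq GRCm38.p6, the same build, and positions count from 1. Start peaks lay within 1000 bp, and the strongest was that of highest −log10 q. GC, CpG and copies of 75-base words were taken in 1000 bases around the 5′ end. Fragments at summits were solved from fold and p under a Poisson model without a control and are not the authors' values. Fingers (a C2H2 pattern) and KRAB stretches were counted in translated coding sequences, since no protein table was used here.

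Genes named are the 3 strongest per chromosome and list, those of the asthmatic-mother list alone, the 5 strongest of the control list alone, the 3 widest domains per list, the 3 with most starts, divergent member pairs and 11 members known from textbooks (Zfp704, also listed, is not a member by the rule). The others were chosen after their values were seen, to describe runs, unmarked members, rises in rank and motifs, which were also chosen then. The rule for members uses symbols and positions alone, but it and the lists were chosen with earlier results of these data known. The routines were tested on simulated data. Python 3.11.15, numpy 2.4.6, pandas 2.3.3, scipy 1.17.1, matplotlib 3.10.9, numba 0.67.0 and Biopython 1.88 were used.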

Additional observations from a re-analysis of the deposited data

How the results depend on the processing

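No paired analysis was possible because each group has 1 library. Alternatives were a −log10 q of at least 5, the 10000 peaks of highest −log10 p, distances of 500 and 2000 bp, the 5′ end of the gene alone, starts of protein-coding transcripts alone, single-copy summits, an overlap of 50% of both peaks, joined domains, and ranks by fold. With the 10000 strongest peaks, the shares of marked members were 61.4% in the control list and 13.6% in the asthmatic-mother list, 24 members were in both lists and 89 in the control list alone. By chromosome these shares were 51.1% and 9.09% on 7, 62.5% and 25.0% on 8, 80.6% and 16.1% on 13, and 68.3% and 14.6% on 17, and 20.7% of start peaks of the control list overlapped a peak of the other. With the 5′ end alone, the control share on chromosome 13 was 80.6%, the lowest instead of the highest of the 4 chromosomes. With single-copy summits, 7 members were in the asthmatic-mother list alone and the control share on chromosome 17 was 68.3%. With an overlap of 50% of both peaks, 52.8% of control start peaks and 69.6% of the others were shared. Of the alternative values, 87 stayed within the interval of the reported share, 1.5 times the reported count or the interquartile range of the reported values, and 18 did not. The causes were not tested. Depth, the threshold and the single library per group limit what a missing peak shows.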
